A study of Mus musculus with 7 samples.

Results

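Cartilage matrix genes outside the collagens (Acan, Hapln1, Matn1, Matn3, Snorc, Cnmd and Prg4) and the chondrocyte transcription factors Sox9, Sox5 and Sox6 were examined in mouse femurs after a brain injury. They are 10 of the 49671 genes in the count table, taken by symbol, and all 10 were among the 17144 genes tested. All mice were wild type, and messenger RNA came from the whole crushed femur. The TBI group (4 libraries) had a traumatic brain injury by controlled cortical impact, a strike on the brain surface, with femurs taken 3 days later, and the control group (3 libraries) had no injury. The comparison asks what a brain injury does to gene expression in a distant bone. The labels give no age, sex or strain and do not say whether the uninjured mice had anaesthesia or surgery. They number the replicates without saying that each is a separate animal, so each p-value is relative to the spread among these libraries, which may be technical.

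Cartilage resists compression because aggrecan, a proteoglycan carrying many chondroitin sulfate chains, forms large aggregates on hyaluronan inside a collagen network, with link protein holding each aggrecan in place. Matrilins bridge these aggregates and the collagen fibrils. SOX9 is required for cells to become and remain chondrocytes, and SOX5 and SOX6, which lack an activation domain of their own, act beside it on cartilage matrix genes. In a femur the sources of these genes include growth plate or articular cartilage and, for the lubricant gene Prg4, the synovial lining. Not all of the genes are confined to cartilage.

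Total counts were 15461528 to 21783534 per library, with 22360 to 23424 genes detected. Levels are given in CPM, counts scaled to library size (TMM). All 8 osteoblast markers had counts, but so had the markers used for other cells, so their presence alone does not identify the tissue. Col2a1, the main collagen of cartilage, averaged 1231 ± 215 CPM in TBI libraries (SD, n = 4) and 2137 ± 386 CPM in controls (SD, n = 3). Skeletal muscle was also present, with 12 muscle markers taking 2.34% to 9.59% of counts in TBI libraries and 1.97% to 6.01% in controls. TBI 3 and TBI 4 had the highest muscle shares, at 7.84% and 9.59%.

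In TBI femurs 9 of the 10 genes had a lower estimate than in controls, and Sox6 had a higher one. Of all 17144 genes tested, 7811 had a lower estimate. No member passed an adjusted p of 0.05 in edgeR's quasi-likelihood test (Benjamini-Hochberg over all genes tested), where 0 of 17144 genes passed (0%) and DESeq2 called 84. At an unadjusted p under 0.05 there were 5 members, Acan, Cnmd, Matn1, Snorc and Sox9, all lower, against 852 of 17144 genes tested that were lower at that level (4.97%) and 407 that were higher. Without control 3 the count was 3 (Acan, Matn1 and Cnmd), and with the mean of the erythroid markers as a covariate it was 0. Every TBI library lay below every control for 3 members, Acan, Matn1 and Cnmd, against 922 of 17144 genes (5.38%). DESeq2 called 1 member, Acan, at an adjusted p of 0.0158, against 77 of the 14821 genes it adjusted that were lower and called (0.52%). The members were chosen with results of these data known, so the counts describe them. In whole bone, fewer chondrocytes, less RNA per chondrocyte and a different share of RNA from other cells cannot be told apart.

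**Figure D1:**
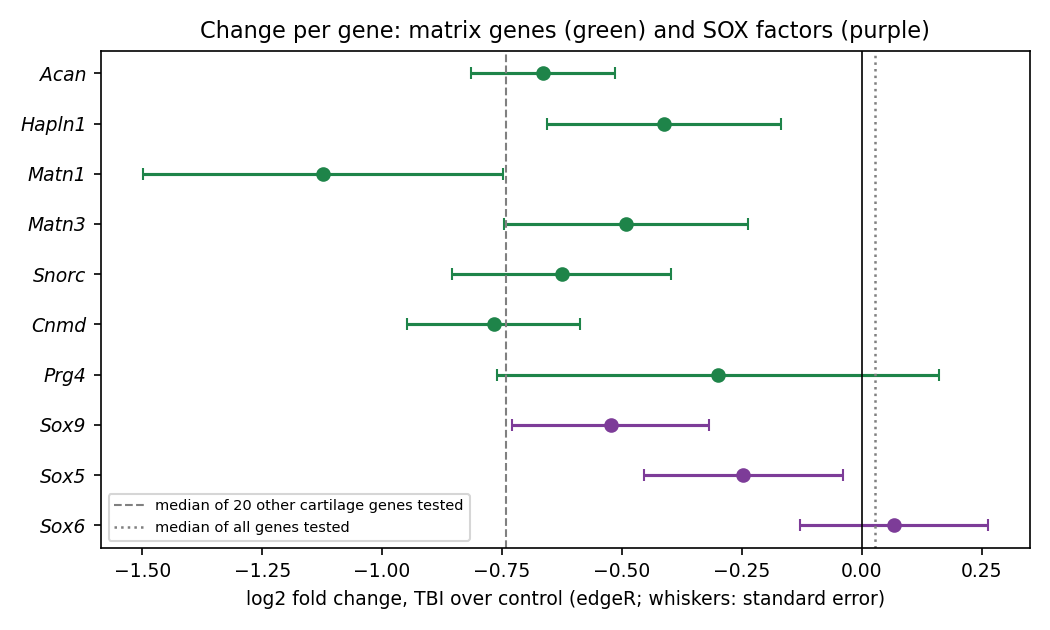
Log2 fold change of each gene, TBI over control (x axis; points are edgeR estimates, whiskers are standard errors), with matrix genes in green and SOX factors in purple. The 7 matrix genes lie left of 0, between −0.30 (Prg4) and −1.12 (Matn1), and Sox6 lies at 0.07. Vertical lines mark the medians of 20 other cartilage genes (dashed) and of all genes tested (dotted).

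Aggrecan and the link protein that fixes it to hyaluronan were both lower on average, with different spread. Acan (ENSMUSG00000030607, protein coding, GRCm38 chromosome 7, 79053483 to 79115099, plus strand) measured 229, 197, 164 and 165 CPM in TBI 1 to TBI 4, against 298, 297 and 302 CPM in controls 1 to 3. The groups did not overlap: the highest TBI library, TBI 1, stood at 76.6% of the control mean, and the SD was 30.8 CPM over the TBI libraries and 2.87 CPM over the controls. The log2 fold change was −0.66 ± 0.15 (SE; unadjusted p = 0.0018 and adjusted p = 0.423 in edgeR). Leaving out single libraries moved it between −0.77 and −0.60. Hapln1 (ENSMUSG00000021613, chromosome 13, 89539796 to 89611652, plus strand), which encodes the link protein, measured 105, 59.7, 57.3 and 101 CPM in TBI 1 to TBI 4, against 125, 104 and 94.0 CPM in controls. TBI 2 and TBI 3 were low, while TBI 1 and TBI 4 lay within the control range. Its log2 fold change was −0.41 ± 0.24 (SE; adjusted p = 0.75 in edgeR).

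The matrilins Matn1 and Matn3 differed in level and in how far the groups stood apart. Matn1 (ENSMUSG00000040533, chromosome 4, 130944385 to 130955475, plus strand) was rare, at 2.52, 1.45, 0.705 and 2.11 CPM in TBI 1 to TBI 4 and 3.79, 3.59 and 3.75 CPM in controls. These levels rest on 58, 34, 13 and 40 counts in the TBI libraries and 84, 57 and 72 counts in the controls. All TBI libraries were below all controls, with TBI 3 lowest at 19.0% of the control mean. The log2 fold change was −1.12 ± 0.37 (SE; unadjusted p = 0.0159 and adjusted p = 0.587 in edgeR), the lowest of the 10 genes, and −0.87 without TBI 3. Matn3 (ENSMUSG00000020583, chromosome 12, 8947929 to 8972028, plus strand), mutated in a form of human epiphyseal dysplasia, measured 39.9, 17.2, 22.6 and 27.8 CPM in TBI libraries and 40.6, 39.4 and 33.5 CPM in controls. TBI 1 was as high as the controls and TBI 2, TBI 3 and TBI 4 lay below them. Its log2 fold change was −0.49 ± 0.25 (SE; adjusted p = 0.726 in edgeR), −0.75 without TBI 1 and −0.05 with the erythroid marker mean as a covariate.

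Cnmd and Snorc encode small membrane proteins of chondrocytes. Cnmd (ENSMUSG00000022025, chromosome 14, 79637690 to 79662170, minus strand) encodes chondromodulin, whose released part inhibits vessel growth. It measured 45.9, 28.1, 28.2 and 37.2 CPM in TBI 1 to TBI 4, against 56.3, 60.2 and 61.4 CPM in controls. The groups did not overlap, and TBI 2 and TBI 3 were lowest, at 47.4% and 47.5% of the control mean. Its log2 fold change was −0.77 ± 0.18 (SE; unadjusted p = 0.00236 and adjusted p = 0.423 in edgeR, adjusted p = 0.0546 in DESeq2). Snorc (ENSMUSG00000026258, chromosome 1, 87470271 to 87475482, plus strand), a transmembrane chondroitin sulfate proteoglycan, measured 13.6, 18.9, 18.2 and 11.1 CPM in TBI libraries and 17.8, 25.9 and 28.05 CPM in controls. Control 1 lay below TBI 2 and TBI 3, so the groups overlapped. The log2 fold change was −0.63 ± 0.23 (SE; unadjusted p = 0.0238 and adjusted p = 0.616 in edgeR). TBI 4 and TBI 1 were low in Snorc, whereas TBI 2 and TBI 3 were low in Cnmd.

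The plot of levels in every library shows these patterns beside the genes that follow.

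**Figure D2:**
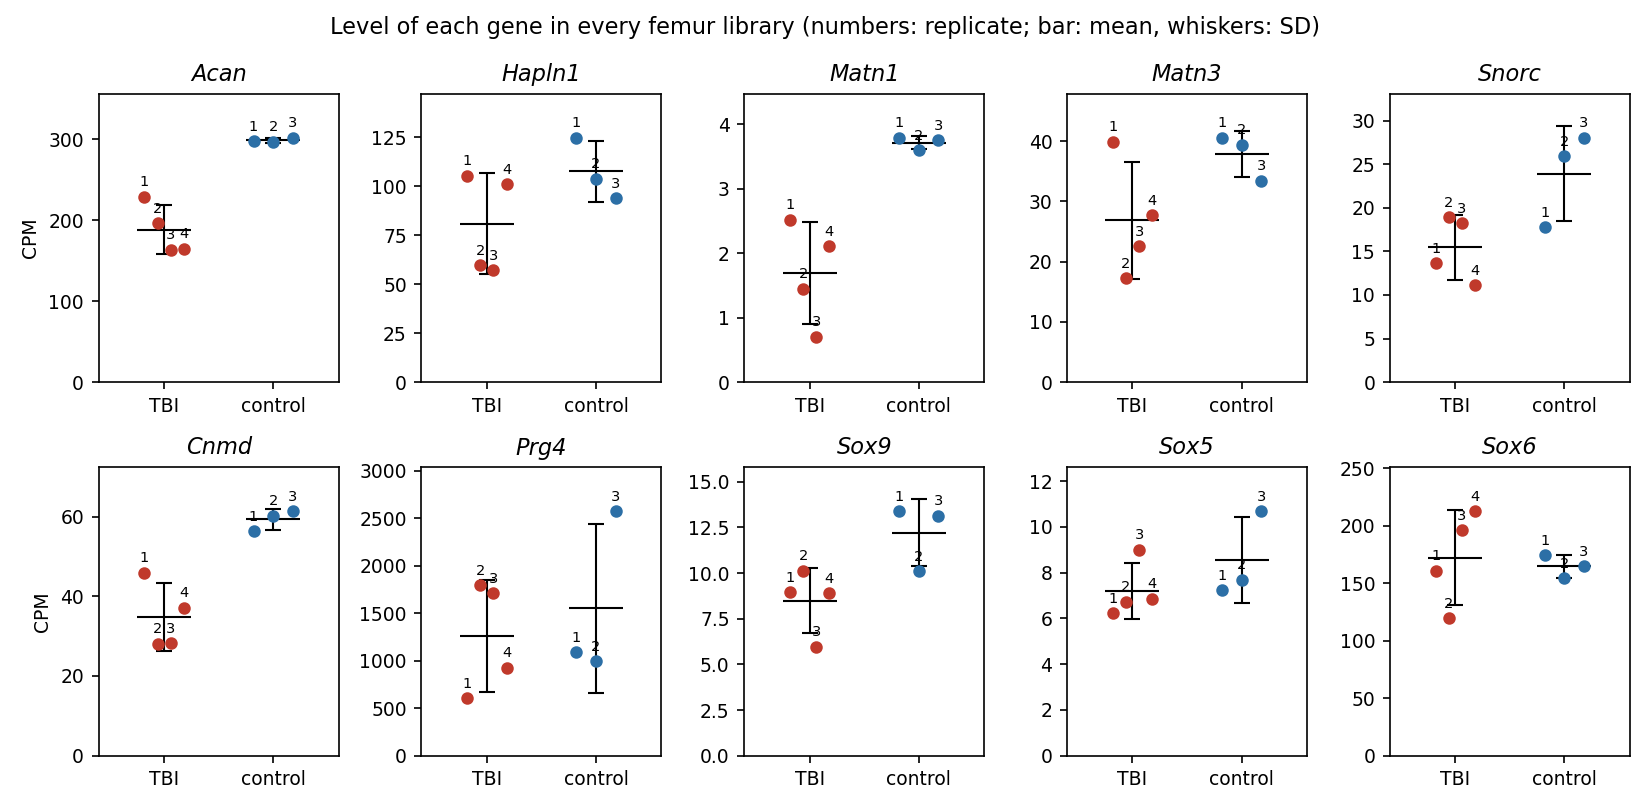
CPM of each gene (y axis, from 0, a separate scale per panel) in the 4 TBI libraries (red, left) and 3 control libraries (blue, right), with replicate numbers, the group mean (bar) and SD (whiskers). Acan, Matn1 and Cnmd show no overlap between groups, with control values close together, and Prg4 spreads from 606 to 2578 CPM.

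The promoters shown are those of the 3 genes whose groups did not overlap with TMM scaling. The sequences are the 250 bases before the RefSeq start (GRCm38.p6), 5′ to 3′ on the gene's strand, none of which overlaps an annotated GENCODE M21 exon. They lie at chr7:79052976-79053225 (Acan, plus strand), chr4:130944135-130944384 (Matn1, plus strand) and chr14:79662184-79662433 (Cnmd, minus strand). Capitals mark the GC box letters GGGCGG, searched on both strands.
Acan: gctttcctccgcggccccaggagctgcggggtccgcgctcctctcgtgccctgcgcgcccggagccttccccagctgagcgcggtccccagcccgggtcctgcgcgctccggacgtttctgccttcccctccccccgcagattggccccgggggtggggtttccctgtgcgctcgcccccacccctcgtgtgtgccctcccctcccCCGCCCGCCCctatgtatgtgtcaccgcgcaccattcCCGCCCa
Matn1: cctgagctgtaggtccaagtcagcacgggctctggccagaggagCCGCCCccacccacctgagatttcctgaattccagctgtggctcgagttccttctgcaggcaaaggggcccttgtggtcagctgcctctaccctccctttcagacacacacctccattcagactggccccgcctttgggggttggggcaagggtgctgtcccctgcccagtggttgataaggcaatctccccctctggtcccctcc
Cnmd: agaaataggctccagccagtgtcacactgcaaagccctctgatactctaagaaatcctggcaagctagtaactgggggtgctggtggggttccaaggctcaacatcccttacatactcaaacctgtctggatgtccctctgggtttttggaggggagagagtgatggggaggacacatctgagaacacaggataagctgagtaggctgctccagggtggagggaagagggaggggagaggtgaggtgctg
The Acan window held 3 GC box matches (2 of them overlapping), the Matn1 window 1 and the Cnmd window none, and 32.7% of all 32851 promoter windows of that length held at least 1. The core letters that SOX proteins bind, ACAAT, were not in any of these 3 windows on either strand, and 27.7% of all windows held them. Their base composition ran from 54% G and C (Cnmd) through 62% (Matn1) to 74.4% (Acan). The promoter table matched 7 of the 10 members, with 12 windows, since Sox6 has several starts. ACAAT was in 5 of the 12, once each for Hapln1 (249 to 245 bases before the start) and Sox5 (154 to 150 bases before the start) and in 3 of the Sox6 windows. No TATAAA was found in the Acan, Matn1 and Cnmd windows, and 12.4% of all windows held it.

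Prg4 (ENSMUSG00000006014, chromosome 1, 150449412 to 150466165, minus strand) encodes lubricin, the lubricant of joint surfaces, made by superficial chondrocytes and synovial lining cells. It measured 606, 1799, 1713 and 925 CPM in TBI 1 to TBI 4, against 1090, 993 and 2578 CPM in controls 1 to 3. Control 3 was highest of all libraries and TBI 1 lowest, and the groups overlapped throughout. The log2 fold change was −0.30 ± 0.46 (SE; adjusted p = 0.862 in edgeR), 0.28 without control 3 and −1.12 with the erythroid marker mean as a covariate. The coefficient of variation was 46.6% in TBI libraries and 57.2% in controls, against 16.4% and 0.96% for Acan. Its span overlaps Tpr on the opposite strand, which had 2465 to 4467 counts per library against 13955 to 49450 for Prg4, so the split of reads at that end is uncertain where counting ignored strand. The 6 synovial lining markers took 0.0176% to 0.0303% of counts in TBI libraries and 0.0212% to 0.0295% in controls. They did not move together: 3 had a lower and 3 a higher estimate, from −0.58 (Htra1) to 0.49 (Clic5). Clic5 had the most counts of the 6 and was highest in TBI 3 and TBI 4 (157 and 199 CPM), which had the highest muscle shares. Over the 7 libraries, the mean log2 CPM of the 6 markers had a Pearson r of 0.773 with Prg4. This was not particular to Prg4: the r was 0.809 with Sox5, 0.464 with Snorc and 0.291 with Sox6. It was negative with the other members, at −0.146 with Acan. These values describe libraries that share 1 scaling.

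The SOX factors differed in their estimates. Sox9 (ENSMUSG00000000567, chromosome 11, 112782224 to 112787760, plus strand) measured 8.95, 10.1, 5.97 and 8.91 CPM in TBI 1 to TBI 4, against 13.4, 10.1 and 13.1 CPM in controls. TBI 2 and control 2 were nearly equal, at 10.13 and 10.09 CPM, and the other TBI libraries lay below all controls. The log2 fold change was −0.52 ± 0.21 (SE; unadjusted p = 0.0328 and adjusted p = 0.653 in edgeR). With RLE in place of TMM scaling, the Sox9 values of the groups did not overlap.

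Sox5 (ENSMUSG00000041540, chromosome 6, 143828425 to 144781977, minus strand) measured 6.21, 6.73, 9.001 and 6.85 CPM in TBI libraries and 7.22, 7.69 and 10.7 CPM in controls. TBI 3 lay among the controls and the other TBI libraries just below them. The log2 fold change was −0.25 ± 0.21 (SE; adjusted p = 0.773 in edgeR), and −0.05 without control 3.

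Sox6 (ENSMUSG00000051910, chromosome 7, 115470872 to 116038796, minus strand) measured 161, 120, 196 and 213 CPM in TBI 1 to TBI 4 and 175, 154 and 165 CPM in controls. TBI 3 and TBI 4 lay above all controls and TBI 2 below them, and the log2 fold change was 0.07 ± 0.20 (SE; adjusted p = 0.938 in edgeR). In the mouse, Sox6 also acts in erythroid cells and in fast muscle fibres. TBI 3 and TBI 4 are the libraries with the highest muscle marker shares. In controls 1, 2 and 3, muscle markers took 1.97%, 3.65% and 6.01% of counts, and Sox6 was at 175, 154 and 165 CPM. Over the 7 libraries Sox6 had a Pearson r of 0.524 with the muscle marker mean. With the endothelial and erythroid marker means it was 0.556 and −0.167. The Sox6 value was −0.04 with the muscle marker mean as a covariate and −0.11 with the erythroid marker mean. Without TBI 3 and TBI 4, an alternative chosen after the data were seen, it was −0.25. The parts of muscle and erythroid RNA in the Sox6 level were not tested. Antisense genes over Sox6 and Sox5 had at most 28 and 3 counts per library.

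Set per library against the control mean, which library was lowest depended on the gene: TBI 1 for Prg4 and Sox5, TBI 2 for Matn3, Cnmd and Sox6, TBI 3 for Acan, Hapln1, Matn1 and Sox9, and TBI 4 for Snorc.

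**Figure D3:**
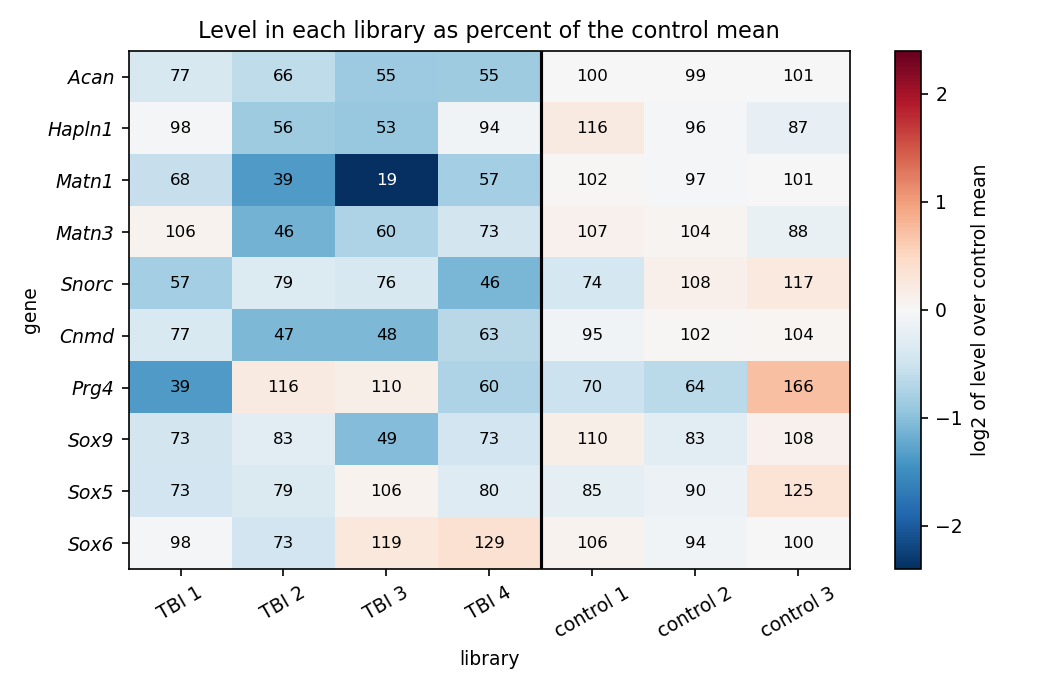
Level of each gene (rows) in each library (columns; TBI left of the line, control right) as a percent of the control mean, coloured on a log2 scale. Acan, Hapln1, Matn1, Snorc, Cnmd and Sox9 are below 100% in all 4 TBI libraries, Prg4 is at 39% in TBI 1 and 166% in control 3, and Sox6 is at 119% and 129% in TBI 3 and TBI 4.

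The members are ranked by level here per kilobase of annotated exon (RPKM). Prg4 was highest, with a mean of 324 RPKM over the 7 libraries, and lay above every other member in each of them. Acan (31.6 RPKM), Snorc (26.4 RPKM) and Cnmd (24.6 RPKM) followed, and their ranges over the libraries overlapped. Snorc exceeded Cnmd in 4 of 7 libraries, so that order does not hold beyond the spread. Hapln1 (15.6 RPKM) lay below Cnmd in all 7 libraries, though their ranges overlapped, and Sox6 (11.4 RPKM) and Matn3 (10.5 RPKM) came next, with Sox6 above Matn3 in 4 of 7 libraries. Matn3 lay above Sox9 (2.44 RPKM) in all 7 libraries with no overlap of their ranges. Matn1 (1.28 RPKM) and Sox5 (0.541 RPKM) were lowest. Sox5 and Sox6 have 14376 and 14832 bases of annotated exon over all their transcripts, which lowers their RPKM where only part of it is used.

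**Figure D4:**
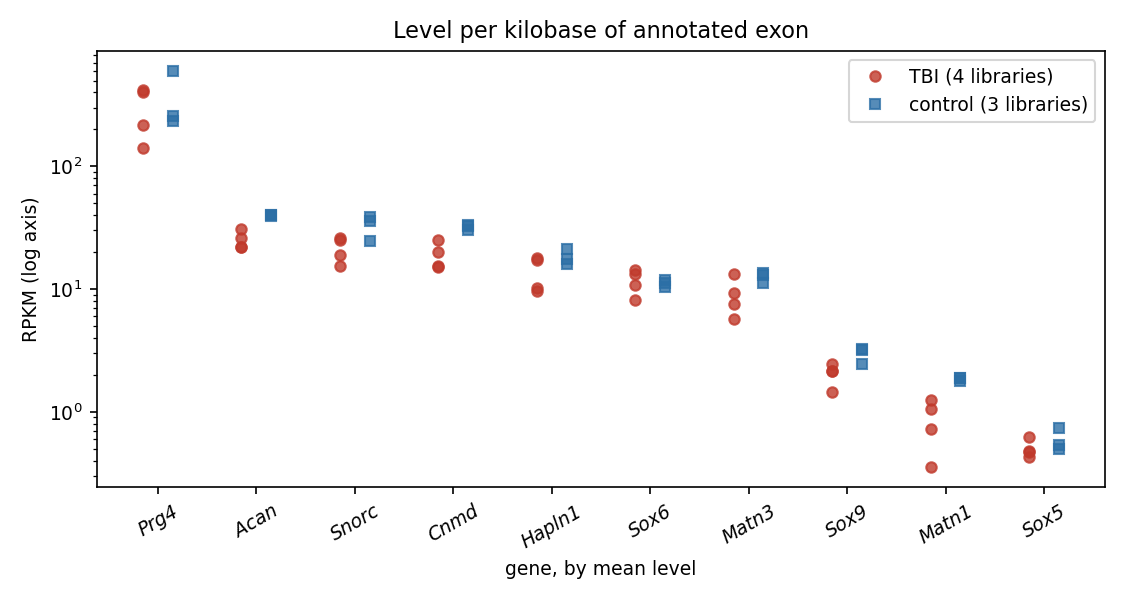
RPKM of each gene (log axis) in the 4 TBI libraries (red circles) and 3 control libraries (blue squares), ordered by the mean over all 7. Prg4 stands apart, with its lowest library at 141.7 RPKM, and Sox9, Matn1 and Sox5 reach at most 3.24 RPKM.

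The plot of correlations shows which genes varied together over the libraries. Over the 7 libraries the Pearson r of log2 CPM was 0.91 between Acan and Cnmd, 0.93 between Cnmd and Matn1, 0.90 between Hapln1 and Matn3 and 0.87 between Matn1 and Sox9. Prg4, Sox5 and Snorc varied together too, at 0.79 (Prg4 and Sox5), 0.70 (Snorc and Sox5) and 0.63 (Snorc and Prg4). Snorc was also at 0.67 with Acan. The highest r of Sox6 with another member was 0.274, with Matn3. These values describe 7 libraries that share their scaling and, in part, a difference between groups.

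**Figure D5:**
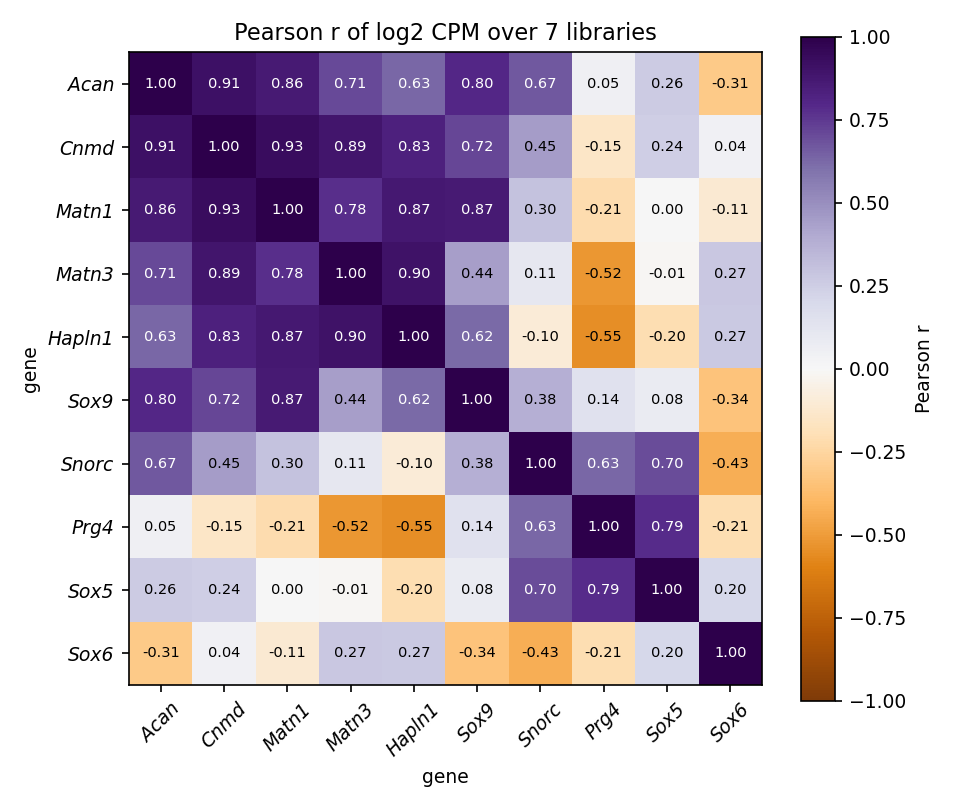
Pearson r of log2 CPM over the 7 libraries for each pair of genes (both axes), from −1 (orange) to 1 (purple). Acan, Cnmd, Matn1, Matn3, Hapln1 and Sox9 form a block with r from 0.44 to 0.93, and Snorc, Prg4 and Sox5 a second one from 0.63 to 0.79.

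Whether members differed from each other in their response was tested on 9 ratios within each library, which do not depend on library scaling. The two-sided exact permutation test cannot go below p = 0.0571 with 4 and 3 libraries, and the groups overlapped in all 9 ratios. The Matn1 to Acan ratio had a log2 mean of −6.94 ± 0.70 in TBI libraries (SD, n = 4) and −6.33 ± 0.04 in controls (SD, n = 3), a difference of −0.60 (exact p = 0.229, 0.707 after Benjamini-Hochberg adjustment over the 9 ratios). It was −0.30 without TBI 3 and −0.18 with a pseudocount of 1 CPM, and Matn1 had 13 to 84 counts per library. TBI 3 was lowest at −7.86, and TBI 4 reached the control values at −6.29. The Sox6 to Sox9 ratio was 4.34 ± 0.63 in TBI libraries and 3.76 ± 0.15 in controls, a log2 difference of 0.57 (exact p = 0.229). Prg4 to Acan differed by 0.38 (exact p = 0.629), with SDs of 0.90 in TBI libraries and 0.75 in controls. Sox9 to Acan differed by 0.14 (exact p = 0.514), Cnmd to Acan by −0.12 (exact p = 0.571) and Snorc to Acan by 0.05 (exact p = 0.857). With 4 and 3 libraries no ratio could pass 0.05, so the test does not show that the members respond alike.

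Other cartilage genes, on a list that leaves the 10 members out, also had lower estimates. This held for 20 of 20 tested, against 7811 of 17144 over all genes tested. The median log2 fold change of the 20 was −0.74, against −0.63 for the 7 matrix members and 0.03 for all genes tested. None passed an adjusted p of 0.05 in edgeR, 18 of the 20 had an unadjusted p under 0.05 and were lower (4.97% of all genes tested), and 14 had every TBI library below every control (5.38% of all genes tested). Those with the most counts, with no correction for length, were Col2a1 (−0.80 ± 0.21, SE), Col11a2 (−0.76 ± 0.18), Comp (−0.74 ± 0.21), a pentameric matrix protein of cartilage and tendon, Col11a1 (−0.82 ± 0.21), Chad (−0.86 ± 0.27), a leucine-rich protein that binds collagen, and Cytl1 (−0.86 ± 0.40). Scrg1, named after its value was known, was nearest to 0, at −0.06 ± 0.31.

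Relatives of the members gave mixed values. Of 6 hyalectans and link proteins tested, Acan and Hapln1 included, 5 had a lower estimate, against 7811 of 17144 over all genes tested. Acan alone had an unadjusted p under 0.05 in edgeR, and 4.97% of all genes tested were lower at that level. Vcan, the large hyaluronan-binding proteoglycan of many soft tissues, measured 28.4 ± 5.85 CPM in TBI libraries (SD, n = 4) and 28.4 ± 4.03 CPM in controls (SD, n = 3), a log2 fold change of 0.0034 ± 0.18 (SE), against −0.66 for Acan. Hapln4 (−0.80 ± 0.46), Bcan (−0.30 ± 0.36) and Hapln3 (−0.14 ± 0.35) were rare, with means under 2 CPM in both groups. The other matrilins were at −0.46 ± 0.17 (Matn2) and −0.60 ± 0.23 (Matn4), with unadjusted p-values of 0.0259 and 0.0293 in edgeR. Among the other SoxD and SoxE factors, Sox13 stood at −0.39 ± 0.22, Sox8 at −0.37 ± 0.27 and Sox10, a neural crest and Schwann cell factor, at 0.06 ± 0.57. A difference between members and relatives was not tested.

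Of 17 genes listed for the turnover of aggrecan and hyaluronan, an inhibitor and a receptor included, 14 had a lower estimate. Over all genes tested it was 7811 of 17144. The median log2 fold change of the 17 was −0.28, and none of them passed an adjusted p of 0.05 in edgeR. At an unadjusted p under 0.05 there were 3 of the 17, all lower, against 4.97% of all genes tested that were lower at that level. The 3 are named for that: Cemip (−0.75 ± 0.20, SE), which takes part in hyaluronan breakdown, the hyaluronidase Hyal1 (−0.57 ± 0.15) and Chst11 (−0.36 ± 0.16), a chondroitin sulfotransferase. Mmp13, a collagenase of hypertrophic chondrocytes and osteoblasts, was at −0.46 ± 0.22, Timp3, a metalloproteinase inhibitor, at −0.23 ± 0.14, and the hyaluronan receptor Cd44 at 0.10 ± 0.23. Groups did not overlap for 4 of the 17 genes: Cemip, Hyal1 and Adamts9 (−0.35 ± 0.16), a protease of the aggrecanase family, had every TBI library below every control, and the aggrecanase Adamts5 had every TBI library above every control. Of all 17144 genes tested, 922 (5.38%) had every TBI library below every control and 456 had every TBI library above. Adamts5 was at 24.8 ± 0.98 CPM in TBI libraries (SD, n = 4) and 22.2 ± 1.17 CPM in controls (SD, n = 3), with a log2 fold change of 0.16 ± 0.11 (SE; adjusted p = 0.763 in edgeR). Adamts9 and Adamts5 are named because of those values. The other family members on the list were at −0.28 ± 0.24 (Adamts4) and −0.10 ± 0.29 (Adamts15). Adamts1, another protease of that family, was at −0.0033 ± 0.26, and Xylt1, which starts the glycosaminoglycan chains, at −0.13 ± 0.14.

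The genes most like the mean of the 7 standardized matrix members over the 7 libraries, among those with at least 1 CPM, were Dync2h1 (Pearson r = 0.99), a motor of cilia, Btbd11 (0.986), the collagen IX chain Col9a2 (0.984), Zfp704 (0.984) and Slc2a13 (0.982). Their log2 fold changes ran from −0.90 (Col9a2) to −0.34 (Zfp704). This order depended on Prg4. With Prg4 left out of the mean, the most alike were Zfp704 (0.978), Nectin3 (0.976), Pdzd4 (0.971), Btbd11 (0.968) and Col9a2 (0.967). For Sox9 the most alike were Rassf1 (0.986), Tnfrsf25 (0.984), Hmces (0.957), Angptl1 (0.955) and Fam57a (0.955). For Sox6 they were Lats2 (0.982), the pseudogene Gm15920 (0.982), the mitochondrial transfer RNA mt-Tl1 (0.975), Fam8a1 (0.972) and Rc3h2 (0.964), with log2 fold changes between 0.007 and 0.28. For Sox5 they were Zfr2 (0.962), Fat4 (0.962), Baiap2l1 (0.956), Plekha7 (0.954) and Gdf11 (0.950). These are the highest values among all such genes over 7 libraries that share their scaling, and they carry no test.

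Of the marker lists of other tissues and cells, the summed shares of the erythroid and tendon markers did not overlap between groups, and those of the other lists did. By mean log2 CPM the osteoblast markers did not overlap (8.892 in TBI 1, 9.048 in control 3), and the tendon markers did (4.942 in TBI 2, 4.887 in control 1). In edgeR, 8 of 8 osteoblast, 4 of 5 tendon, 5 of 9 erythroid and 0 of 6 B-cell markers were lower at an unadjusted p under 0.05. Of all genes tested, 4.97% were lower at that level. The erythroid markers took 2.03% to 3.53% of counts in TBI libraries and 4.44% to 5.54% in controls, with no overlap, and the osteoblast markers 0.975% to 1.69% in TBI libraries and 1.66% to 2.97% in controls. The tendon markers took 0.04% to 0.0671% in TBI libraries and 0.0691% to 0.0953% in controls. The medians of the log2 fold changes were −0.74 for the 8 osteoblast markers, −0.72 for the 5 tendon markers, −0.67 for the 9 erythroid markers tested and −0.75 for the 6 B-cell markers. They were 1.04 for the 8 neutrophil markers, 1.05 for the 5 adipocyte markers, 0.69 for the 12 muscle markers, 0.39 for the 5 megakaryocyte markers, 0.12 for the 4 endothelial markers and −0.04 for the 6 synovial markers. No marker passed an adjusted p of 0.05 in edgeR. Neutrophil markers took 0.166% to 1.19% of counts in TBI libraries and 0.265% to 0.457% in controls. B-cell markers took 0.00303% to 0.0171% in TBI libraries and 0.0133% to 0.0234% in controls, and megakaryocyte markers 0.0956% to 0.213% in TBI libraries and 0.0854% to 0.184% in controls. Adipocyte markers took 0.012% to 0.0505% in TBI libraries and 0.0148% to 0.0181% in controls, and endothelial markers 0.0221% to 0.0285% in TBI libraries and 0.021% to 0.0264% in controls. No marker on these lists was at 0 in all libraries. Their part in the lower cartilage values was not tested. With the erythroid marker mean as a covariate, the values were −0.38 (adjusted p = 0.398 in edgeR) for Acan and −0.63 (adjusted p = 0.342 in edgeR) for Cnmd. That mean itself separates the groups, so marker level and group cannot be told apart. With the muscle marker mean as a covariate, Acan was at −0.60 (adjusted p = 0.0648 in edgeR) and Cnmd at −0.74 (adjusted p = 0.0784 in edgeR).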

How the data were processed

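Per the labels' protocols, RNA from femurs crushed in Trizol was column purified and sequenced after stranded mRNA library preparation. The authors deposited raw read counts per Ensembl gene and a table of log2-like normalized values for 18549 genes. The submitters' processing notes name STAR, DESeq and GRCm38. Not given in the sources used here are how reads were counted, whether by strand, and how the log2 values were made. Symbols, positions and exon lengths came from GENCODE M21 (GRCm38), which matched 49326 of 49671 identifiers.

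Counts were filtered with filterByExpr, scaled by TMM and tested over all genes with edgeR 4.0.16 (quasi-likelihood F-test, Benjamini-Hochberg, threshold 0.05, R 4.3.3). Standard errors come from the estimate and its F statistic. The procedure was tested on simulated data. Ratios between members were compared by exact permutation of 35 splits into 4 and 3. Alternatives were other scalings and filters, DESeq2 1.42.0, limma-voom (limma 3.58.1), a replicate block, marker means as covariates and each library left out. The deposited log2 values gave TBI minus control differences of −0.766 (Matn1), −0.761 (Cnmd), −0.669 (Acan), −0.574 (Snorc), −0.518 (Matn3), −0.455 (Sox9), −0.445 (Hapln1), −0.291 (Prg4), −0.193 (Sox5) and 0.038 (Sox6), and entered no test. The members and gene lists were chosen with earlier results of these data known. Named genes were the members, the 5 most alike genes per pattern and up to 6 genes with the highest mean CPM of each list. Scrg1, Cemip, Hyal1 and members of the Adamts family were named after their values were seen. Ahsp is not used here. Libraries of a group differed beyond sampling noise (chi-square over degrees of freedom at least 27.2 for every pair). No batch is named in the labels.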

Additional observations from a re-analysis of the deposited data

How the results depend on the processing

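Acan, Hapln1, Matn1, Matn3, Snorc, Cnmd, Sox9 and Sox5 had lower estimates in TBI libraries under all 17 alternatives. DESeq2 called 84 genes and 1 member (Acan), where edgeR called 0 genes; the cause was not tested. The count of members at an unadjusted p under 0.05 (5) was 0 with the erythroid covariate and 3 to 6 with single libraries left out. The count without overlap (3) was 5 without TBI 3 and TBI 4 together, an alternative added after seeing the data, which has fewer samples. Prg4 turned to 0.022 in limma-voom, was −1.121 with the erythroid covariate and lay between −0.544 and 0.276 with single libraries left out. Sox6 turned to −0.06 in limma-voom, −0.037 with the muscle covariate, −0.108 with the erythroid covariate and −0.254 without TBI 3 and TBI 4, and lay between −0.051 and 0.196 with single libraries left out. The Snorc to Acan difference lay between −0.152 and 0.193. With the replicate number as a replicate block, 7 members had an unadjusted p under 0.05, 0 passed the threshold and Sox6 was at −0.078. For all genes, the shares at that unadjusted level (4.97%, lower) and without overlap (5.38%, lower) were counted in the main fit only. Changes in these member counts between alternatives therefore have no matching share beside them. Same-numbered libraries did not deviate together throughout (correlations of 0.549, −0.0277 and 0.322), so the numbers are not taken as pairs. Depth limits Matn1 most, at 13 to 84 counts per library.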
